A study of Mus musculus with 23 samples.

Results

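The 9 genes described here carry acetate, lactate and other small monocarboxylates across membranes, or make or break acetyl-CoA. They were taken by symbol from tables of reads per 3 kb window at gene starts. Each of the 9 matched 1 of the 41388 windows in the heart table and the same window in the spleen table. The reads came from methyl-CpG capture, in which sonicated genomic DNA was enriched for methylated CpG sites with the MethylMiner kit and sequenced. A window with more reads yielded more captured DNA, and the values say nothing of RNA or protein. Tissue was left ventricle and spleen of male C57Bl/6 mice housed singly, and the labels describe minipump surgery for the study's mice. Age and the content of the pumps were not given in the sources used here. The control group ate a diet without resistant starch (heart n = 4, spleen n = 4 libraries). The high fibre group ate a diet rich in resistant starch (heart n = 4, spleen n = 4). The acetate group had 100 mM magnesium acetate in its water (heart n = 3, spleen n = 4). Feeding started 3 weeks ahead of surgery. No label says that every library came from a mouse of its own, and the spread on which the p-values rest may thus be technical. Both tissues are mixtures of cells, and a different cell makeup cannot be told apart from different methylation within cells.

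Acetate is produced by gut bacteria from fermentable fibre, enters the blood and is taken up by many tissues. Monocarboxylate transporters of the Slc16 family move such acids together with a proton, and Slc5a8 moves them together with sodium. Inside the cell, acetyl-CoA synthetases join acetate to coenzyme A, ATP citrate lyase makes acetyl-CoA from citrate, and thioesterases release acetate again. Heart muscle can burn lactate, ketone bodies and acetate as fuels. Acetyl-CoA outside the mitochondria also feeds histone acetylation and lipid synthesis.

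The capture depends on CpG sites, so the starts of 5 genes on which the results turn are shown for the CpG sites they offer. The sequences are from RefSeq (build GRCm38.p6), run from 250 bases before to 50 after an annotated start, and read 5′ to 3′ on the gene's strand with every CG in capitals. The motif searched, CG, reads the same on both strands. Of the 9 genes, 7 had an entry in the table, and Slc16a7 and Acss3 are named only.
Slc16a1: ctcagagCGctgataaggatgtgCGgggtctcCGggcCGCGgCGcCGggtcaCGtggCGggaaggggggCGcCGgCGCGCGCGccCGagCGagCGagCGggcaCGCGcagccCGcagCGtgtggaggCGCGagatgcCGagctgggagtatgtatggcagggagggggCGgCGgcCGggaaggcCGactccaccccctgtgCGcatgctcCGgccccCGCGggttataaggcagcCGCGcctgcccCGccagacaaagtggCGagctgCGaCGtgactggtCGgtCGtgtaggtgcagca
Slc16a3: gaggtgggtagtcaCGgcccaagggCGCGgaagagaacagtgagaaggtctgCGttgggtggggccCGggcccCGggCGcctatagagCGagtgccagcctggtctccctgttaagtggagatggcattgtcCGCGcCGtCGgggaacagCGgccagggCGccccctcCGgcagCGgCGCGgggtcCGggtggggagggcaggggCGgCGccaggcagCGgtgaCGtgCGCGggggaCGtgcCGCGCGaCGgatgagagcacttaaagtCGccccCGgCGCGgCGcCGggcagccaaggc
Slc5a8: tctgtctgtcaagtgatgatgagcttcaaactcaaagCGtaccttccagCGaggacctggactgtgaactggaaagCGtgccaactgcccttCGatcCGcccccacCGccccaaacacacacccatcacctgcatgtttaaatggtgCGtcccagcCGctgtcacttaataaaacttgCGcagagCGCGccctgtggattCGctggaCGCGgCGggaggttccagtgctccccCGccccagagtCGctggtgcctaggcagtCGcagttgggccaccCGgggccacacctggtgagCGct
Acly: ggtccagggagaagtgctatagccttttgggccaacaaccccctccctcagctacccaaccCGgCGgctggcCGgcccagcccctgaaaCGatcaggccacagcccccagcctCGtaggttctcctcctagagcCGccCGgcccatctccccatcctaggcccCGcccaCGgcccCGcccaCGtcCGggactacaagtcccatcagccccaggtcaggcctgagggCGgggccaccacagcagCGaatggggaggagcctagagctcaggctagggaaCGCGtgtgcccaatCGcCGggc
Acot12: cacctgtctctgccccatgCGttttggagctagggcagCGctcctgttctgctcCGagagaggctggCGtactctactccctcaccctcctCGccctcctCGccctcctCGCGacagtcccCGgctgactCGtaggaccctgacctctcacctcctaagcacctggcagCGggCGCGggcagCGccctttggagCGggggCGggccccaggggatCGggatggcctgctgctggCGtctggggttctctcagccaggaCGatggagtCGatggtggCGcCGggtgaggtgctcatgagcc

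The Slc16a1 region, chr3:104638414-104638713 on the plus strand, holds 42 CG in 300 bases, and 3.03% of the 32851 regions in the table hold at least as many. The Slc16a3 region, chr11:120948817-120949116 on the plus strand, holds 36 CG, a number reached by 6.23% of regions. These are the most CG-rich starts among the 7 matched members. The Acot12 region, chr13:91741271-91741570 on the plus strand, holds 22 CG, reached by 23.1%. The Slc5a8 region, chr10:88885742-88886041 on the plus strand, holds 20 CG, reached by 26.5%. The Acly region, chr11:100527951-100528250 on the minus strand, holds 18 CG, reached by 29.7%. Acss1 had 23 CG (21.5%) and Acss2 had 20 (26.5%) in regions not shown here, and each of the 7 matched members was above the median region, which holds 7 CG. Captured DNA did not follow this order: over both tissues' common scale, Slc16a1 had 2.16 to 6.83 CPM (normalised reads per M, or mega, reads) in heart, and Acly, with the fewest CG of the 7, had 59.6 to 108.0. The counted windows are 3 kb wide, so CpG sites outside these 300 bases also enter the counts.

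Libraries differed in ways that touch every comparison. Heart libraries held 4.12 to 8.60 M (mega) reads and spleen libraries 4.36 to 9.87 M. The median count per window was 26 to 70 in heart libraries but only 13 to 29 in spleen libraries. A single window, Gm10800, took 42.3% ± 5.80 (SD, n = 4) of the reads of control hearts, 19.05% ± 1.70 (SD, n = 4) of high fibre hearts and 33.8% ± 10.5 (SD, n = 3) of acetate hearts. In spleen libraries Gm10800 took 48.2 to 61.2%. The part of Gm10800 in the heart and spleen results was not tested. Heart acetate replicate 1 stood apart, with a median count of 26 per window against 38 to 70 in the other heart libraries. CPM were scaled with TMM, which sets the bulk of windows to no change. Heart and spleen were scaled separately for diet comparisons and together for tissue comparisons, and CPM of these kinds of comparison are on different scales.

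On the high fibre diet, heart DNA was captured more at the windows of 2 transporters and less at those of 1 transporter and 1 enzyme. Slc16a7 (MCT2, a high-affinity carrier of pyruvate, lactate and ketone bodies) and Slc5a8 (SMCT1, the sodium-coupled carrier) rose. Slc16a3 (MCT4, known for lactate export from glycolytic cells) and Acly (ATP citrate lyase) fell. These 4 of 9 members passed an adjusted p of 0.05 in edgeR's quasi-likelihood test with Benjamini-Hochberg adjustment, against 26.2% of all 33562 windows tested, of which 4227 were higher and 4559 lower. All 9 members passed the filter on low counts in heart. The median log2 fold change was 0.10 over the 9 members and 0.02 over all windows. The change of a window went with its abundance: the 10% of windows with the least reads had a median log2 fold change of 0.53, and the 10% with the most had -0.27. Members are therefore set beside the median of windows of like abundance, in 10 classes from 1 (lowest) to 10 (highest). Summed marker windows of cell types, on the scale common to both tissues, did not overlap between control and high fibre hearts in 5 of 8 lists. How often sums of other windows would not overlap was not examined, so this count alone does not set cell types apart. Captured DNA was lower in high fibre hearts for the T and NK cell list (139 to 166 CPM against 191 to 225 in control), the pan-leukocyte list (153 to 185 against 202 to 213), the myeloid list (60.6 to 72.5 against 83.9 to 101.2) and the erythroid list (43.4 to 48.4 against 51.2 to 54.5). It was higher for the fibroblast list (117.2 to 130.7 against 93.5 to 108.8). The cardiomyocyte, B cell and endothelial lists overlapped (279 to 310 against 298 to 353, 96.9 to 103.3 against 99.0 to 121.9, and 57.9 to 67.4 against 65.4 to 76.3). Their part in the members' changes was not tested.

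Slc16a7 (ENSMUSG00000020102, chr10:125219270-125389586) had 30.1, 31.6, 21.1 and 31.3 CPM in the 4 control hearts and 38.2, 40.2, 39.2 and 44.3 CPM in the 4 high fibre hearts. Every high fibre heart was above every control heart, and the acetate hearts, at 26.8, 32.0 and 34.6 CPM, overlapped the controls and were below every high fibre heart. The log2 fold change of high fibre against control was 0.49 (SE 0.13, adjusted p = 0.0116). Windows of its abundance class, class 9, had a median of -0.26, with 149 of 3356 windows past the threshold upwards and 1166 downwards, so Slc16a7 went against most of its class. The call was lost when 1 surrogate variable was added (0.33, adjusted p = 0.311) and without high fibre replicate 4 (0.45, adjusted p = 0.0524).

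Slc5a8 (ENSMUSG00000020062, chr10:88885992-88929515) had 7.61, 11.4, 10.4 and 11.1 CPM in control hearts and 13.3, 14.3, 12.8 and 13.5 CPM in high fibre hearts. The groups did not overlap, and control replicate 1 was the lowest of the 8. Its log2 fold change was 0.41 (SE 0.15, adjusted p = 0.0487), beside a class median of 0.09 in class 5. This call lay at the threshold: it was lost in 8 of 11 fits that left out 1 library (all but control replicate 2 and acetate replicates 1 and 3), with adjusted p up to 0.209. It was also lost with 1 surrogate variable (0.13, adjusted p = 0.881), cyclic loess (0.36, adjusted p = 0.116), DESeq2 (adjusted p = 0.0815) and no filter (adjusted p = 0.0552).

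Acly (ENSMUSG00000020917, chr11:100476352-100528000) had 152.4, 130.7, 129.1 and 138.5 CPM in control hearts and 110.7, 107.6, 117.4 and 90.3 CPM in high fibre hearts. High fibre hearts were all lower than control hearts. The log2 fold change was -0.37 (SE 0.12, adjusted p = 0.0274), and the median of its class, class 10, was -0.27. Slc16a3 (ENSMUSG00000025161, chr11:120948484-120959000) had 61.8, 50.9, 48.7 and 48.1 CPM in control hearts and 43.0, 41.8, 38.1 and 37.1 CPM in high fibre hearts, again without overlap. Its log2 fold change was -0.39 (SE 0.14, adjusted p = 0.0479), in the same class 10. Both windows therefore moved in the direction of most windows with many reads, of which 1415 of 3357 were called lower. With library totals in place of TMM the direction turned for both, to 0.32 for Acly (adjusted p = 0.0333) and 0.30 for Slc16a3 (adjusted p = 0.0555), while the median of all windows moved from 0.02 to 0.69. Acly was also no longer called with 1 surrogate variable or cyclic loess (-0.11 each), or without control replicate 1 or 4 or high fibre replicate 2 or 4 (adjusted p from 0.0525 to 0.117). The Slc16a3 call was also lost without any 1 of the 8 control and high fibre libraries, with adjusted p from 0.0568 to 0.182, and with cyclic loess (-0.14, adjusted p = 0.328), DESeq2 (adjusted p = 0.0677) and 1 surrogate variable (0.02, adjusted p = 0.966).

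**Figure D1:**
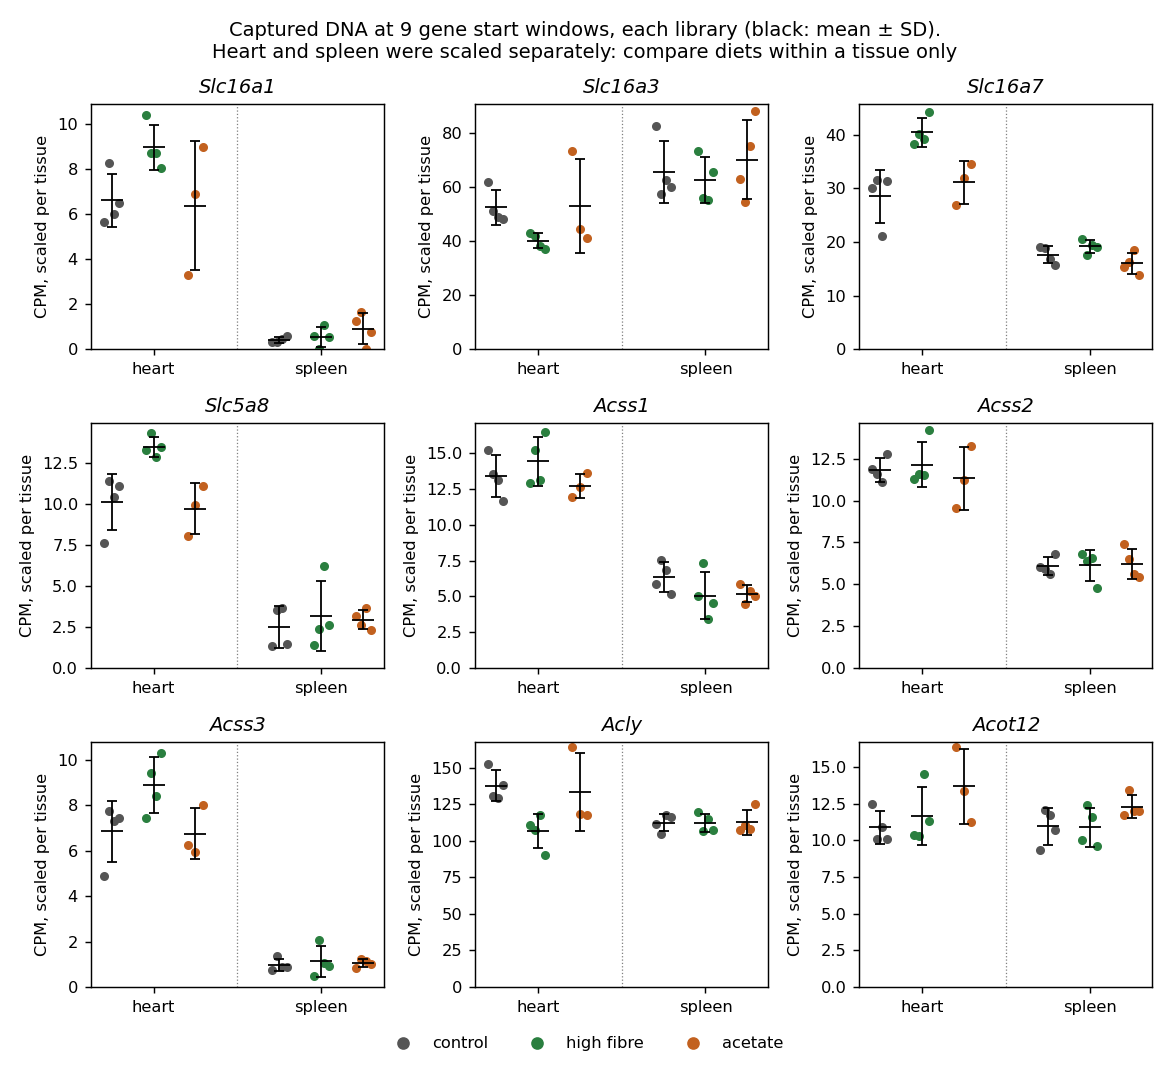
Captured DNA (y axis, CPM scaled within each tissue) at the windows of the 9 genes in control (grey), high fibre (green) and acetate (orange) libraries of heart and spleen, with 1 point per library and black bars for mean ± SD. Heights compare diets within a tissue only; in heart the high fibre points lie above all control points for Slc16a7 and Slc5a8 and below them for Slc16a3 and Acly.

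The remaining 5 genes did not pass the test in this comparison. Slc16a1 (MCT1, the most widely expressed proton-coupled carrier) was at 0.41 on the log2 scale (SE 0.23, 95% interval -0.04 to 0.86, adjusted p = 0.158). Acss3, a mitochondrial short-chain acyl-CoA synthetase, had 0.38 (SE 0.21, adjusted p = 0.152). Both were in class 4, whose median was 0.24. Acss1, the mitochondrial acetyl-CoA synthetase, had 0.10 (SE 0.13), and Acss2, the cytosolic and nuclear enzyme, had 0.04 (SE 0.14). Acot12, a cytosolic acetyl-CoA thioesterase, had 0.10 (SE 0.16). The 95% intervals were -0.16 to 0.36 for Acss1, -0.24 to 0.33 for Acss2 and -0.21 to 0.41 for Acot12. They overlap the interval of Slc16a7 (0.24 to 0.75), and differences between members were not tested. Nor do they show that these windows were alike on both diets.

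**Figure D2:**
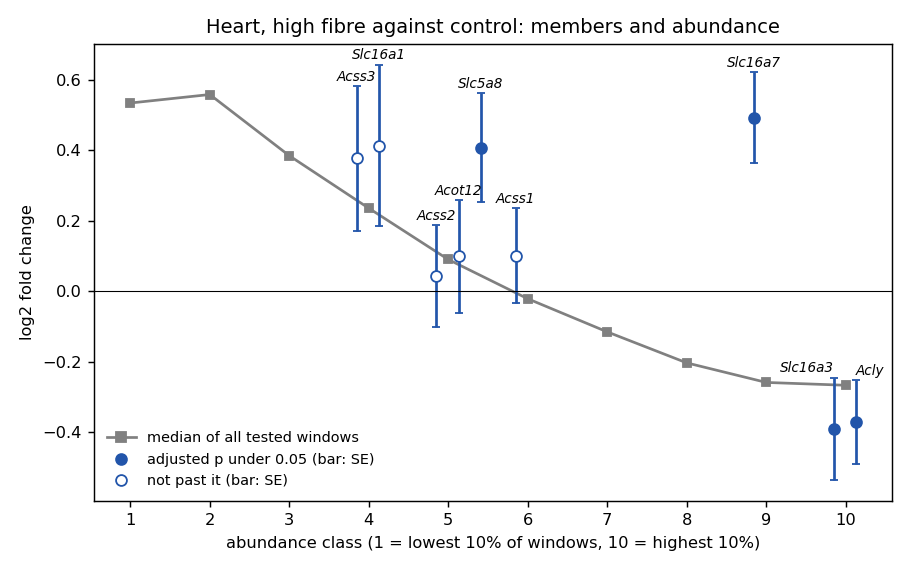
Log2 fold change of high fibre against control hearts (y axis) for the 9 genes (blue, bars SE, filled where the adjusted p was under 0.05) by abundance class (x axis), with the median of all tested windows of each class in grey. The grey line falls from 0.53 in class 1 to -0.27 in class 10; Slc16a7 in class 9 lies at 0.49, above it, and Acly and Slc16a3 lie near it.

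Acetate in the drinking water moved no member past the threshold in heart. No window of the 33562 tested was called by edgeR's quasi-likelihood test (0% called), and 840 had an unadjusted p under 0.05. Acot12 had the largest member change, with 12.5, 10.1, 10.9 and 10.1 CPM in controls and 16.4, 13.4 and 11.3 CPM in acetate hearts. The groups overlapped, and the log2 fold change was 0.28 (SE 0.18, 95% interval -0.06 to 0.63). Slc16a7 had 0.13 (SE 0.14), and the other 7 lay between -0.07 and 0.02. Acetate replicate 1, the library with few reads per window, had the highest Acly level (164 CPM against 118 and 118) and the highest Slc16a3 level (73.0 CPM against 44.5 and 41.1) of its group. It also had the lowest Slc16a1 level, 3.28 CPM against 6.87 and 8.96. Without it Slc16a3 was at -0.30 and Acly at -0.22 against control, and neither passed.

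High fibre and acetate hearts were also compared directly. Here 1.38% of windows passed, with more captured DNA on high fibre at 63 and less at 399, and 0 of the 9 members passed. That background was unsteady: leaving out 1 library gave 0 to 4536 called windows, with 0 without control replicate 2, 3 or 4 or high fibre replicate 1, 2 or 3, and 4536 without acetate replicate 3. The comparison shares its high fibre libraries with the one above, so its values stand beside it and are no separate support. On the log2 scale Slc5a8 was at 0.42 (SE 0.17, adjusted p = 0.113) and Slc16a7 at 0.36 (SE 0.14, adjusted p = 0.110), each with no overlap between the groups. Slc16a3 had -0.38 (SE 0.16, adjusted p = 0.135) and Acly -0.32 (SE 0.13, adjusted p = 0.123), the latter with no overlap. Without acetate replicate 1 the Slc16a3 value shrank to -0.10, and without acetate replicate 3 it was -0.54 and passed (adjusted p = 0.0328).

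In spleen no diet moved any member past the threshold. The median window held fewer reads there (13 to 29 against 26 to 70 in heart), and a missing call does not show that the diets were alike. Slc16a1 and Acss3 were not tested there, since their windows held 0 to 9 and 4 to 14 reads per library and failed the filter. For the other 7, 0 were called in high fibre against control (0% of 24871 windows), acetate against control (0%) or high fibre against acetate (0%). At an unadjusted p under 0.05 these comparisons held 502, 872 and 823 windows. Acss1 had the largest value against control, -0.33 (SE 0.22) on high fibre and -0.29 (SE 0.22) on acetate. Its libraries ran from 5.20 to 7.58 CPM on control and from 3.39 to 7.33 CPM on high fibre, which overlap. Slc16a7 was at 15.7 to 19.1 CPM on control, 17.5 to 20.6 on high fibre and 13.8 to 18.6 on acetate. High fibre against acetate gave 0.28 (SE 0.13, adjusted p = 1.0), the 1 member contrast in spleen with an unadjusted p under 0.05 (0.044). Acly lay between 105 and 125 CPM in all 12 spleen libraries, with log2 fold changes of -0.0047 (SE 0.11) on high fibre and 0.0044 (SE 0.11) on acetate against control.

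**Figure D3:**
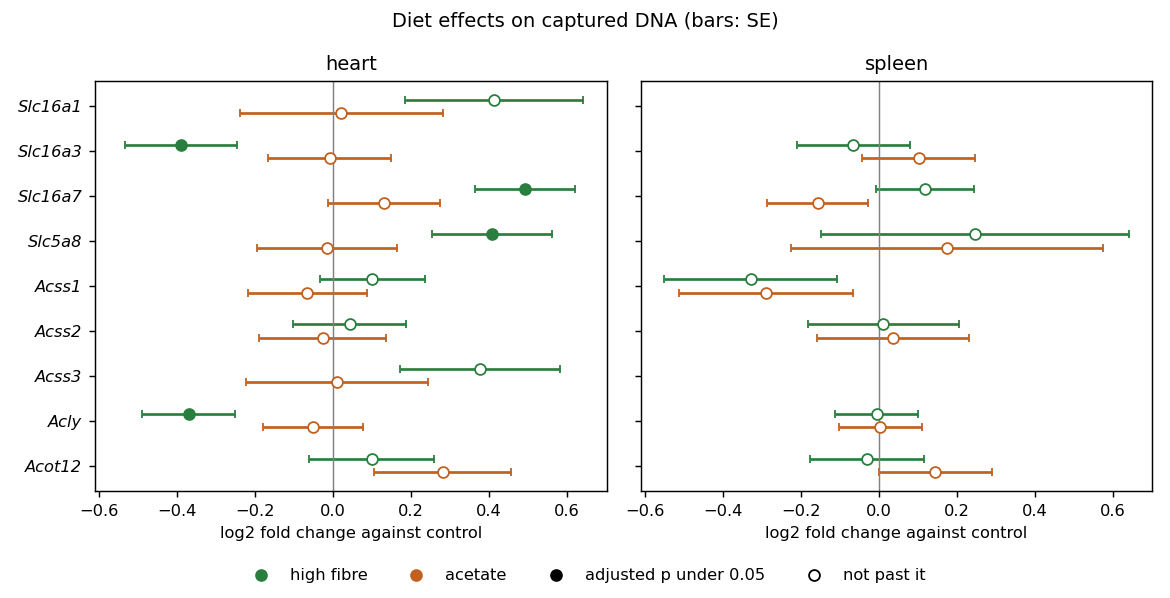
Log2 fold changes against control (x axis) of the 9 genes on high fibre (green) and acetate (orange) in heart (left) and spleen (right), with bars for the SE and filled points where the adjusted p was under 0.05. The filled points are Slc16a3, Slc16a7, Slc5a8 and Acly on high fibre in heart, and Slc16a1 and Acss3 have no point in spleen because they were not tested.

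Whether a diet effect differed between heart and spleen was tested as an interaction over all 23 libraries. For high fibre, 0.0559% of windows were called (6 higher and 13 lower in heart minus spleen), and for acetate 0%. No member was called in either (with edgeR's test, adjusted p = 0.311 for Slc16a7 and 0.313 for Acly in the high fibre effect). The differences were 0.37 (SE 0.19) for Slc16a7 and -0.36 (SE 0.18) for Acly, so the heart calls above are not shown to be particular to heart.

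Far more windows were called between the tissues than between diets. In control mice 72.7% of 33982 windows differed between heart and spleen, in high fibre mice 80.7% and in acetate mice 63%. The members' counts stood beside that: 7 of 9 were called on control (3 higher and 4 lower in heart), 6 of 9 on high fibre (3 and 3) and 5 of 9 on acetate (2 and 3). Slc16a1 and Acss3 are among the higher on every diet, and they passed the filter on low counts only through heart. That filter kept 33562 windows in heart and 24871 in spleen. Many windows counted here thus passed through heart, and the shares are partly set by the filter. The abundance trend was steep here too, from a median of 1.501 in class 3 to -0.78 in class 10 on control. Marker windows of cell types were read as a check, for captured DNA and not expression. The cardiomyocyte list was lower in heart at 10 of 15 windows and higher at 4 in control mice, with summed levels of 298 to 353 CPM in heart and 659 to 819 CPM in spleen. The B cell list was higher in heart at 6 of 8 and lower at 0, with 99.0 to 121.9 CPM in heart and 59.7 to 74.0 CPM in spleen. The T and NK cell list was higher at 4 of 10 and lower at 2, but its sum was lower in heart, at 191 to 225 CPM against 267 to 365. The endothelial list was lower at 4 of 5 and higher at 1. The myeloid list was higher at 3 of 4, the pan-leukocyte list at 3 of 6, and neither was lower at any. The fibroblast list was higher at 3 and lower at 1 of 6, and the erythroid list higher at 2 and lower at 1 of 6. Their part in the tissue differences of the members was not tested.

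Slc16a1 and Acss3 were higher in heart. Slc16a1 (ENSMUSG00000032902, chr3:104638664-104658462) had 3.73, 5.47, 3.98 and 4.29 CPM in control hearts and 0.466, 0.422, 0.652 and 0.860 CPM in control spleens. Its log2 fold change of heart against spleen was 2.40 (SE 0.47) in control mice, 2.51 (SE 0.45) in high fibre mice and 1.54 (SE 0.45) in acetate mice. Spleen rested on 0 to 9 reads per library, and 2 libraries, high fibre replicate 2 and acetate replicate 3, had 0. Acss3 (ENSMUSG00000035948, chr10:106933514-107123761) had 3.22 to 5.14 CPM in control hearts and 1.16 to 1.97 CPM in control spleens, and log2 fold changes of 1.44 (SE 0.32), 1.71 (SE 0.32) and 1.43 (SE 0.35) on the 3 diets in that order. These 2 genes passed the filter on low counts only through heart, so they had to differ, and their calls say little. The medians of their class, class 3, were 1.501, 1.88 and 1.18, and Acss3 was close to them. Slc16a1 was 0.90, 0.63 and 0.35 above them, beside its own SE of 0.47, 0.45 and 0.45. With so few spleen reads, Slc16a1 is not shown to differ from windows of like abundance. With cyclic loess, which takes out a trend with abundance, Acss3 was no longer called on any diet (0.25, 0.19 and 0.45), and Slc16a1 was no longer called on high fibre (0.90, adjusted p = 0.0524) and acetate (0.72, adjusted p = 0.180). With 1 surrogate variable Slc16a1 was lost on the same diets (1.27 and 0.91), and Acss3 on high fibre (1.02).

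Slc5a8 was higher in heart on control and high fibre, with less margin. Control hearts had 5.04 to 7.55 CPM and control spleens 2.10 to 5.38 CPM, which overlap. The log2 fold changes were 0.75 (SE 0.27, adjusted p = 0.0114), 0.96 (SE 0.27, adjusted p = 0.000891) and, on acetate, 0.60 (SE 0.30, adjusted p = 0.0657). The medians of its class, class 5, were 0.47, 0.54 and 0.43 in the same order of diets. Slc5a8 was 0.28, 0.42 and 0.17 above them, beside its own SE of 0.27, 0.27 and 0.30. It is thus not shown to differ from windows of like abundance. The call on control was lost with cyclic loess (0.29) and with 1 surrogate variable (0.11), and that on high fibre with cyclic loess (0.37), while 1 surrogate variable turned it to -0.0638. Without spleen control replicate 4 the control value was 0.59 and no longer passed (adjusted p = 0.0550), and the acetate value passed with DESeq2 (0.73, adjusted p = 0.0380), with library totals (1.52, adjusted p = 7.6e-05), and without heart acetate replicate 1 (0.69, adjusted p = 0.0406) or spleen high fibre replicate 1 or 3 (0.60 and 0.61).

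Slc16a3, Acot12 and Acly were lower in heart on all 3 diets. Slc16a3 had 40.9, 33.7, 32.3 and 31.8 CPM in control hearts and 127, 81.8, 92.2 and 86.6 CPM in control spleens, with no overlap. Its log2 fold changes were -1.47 (SE 0.18), -1.79 (SE 0.18) and -1.55 (SE 0.20) on control, high fibre and acetate, beyond class medians of -0.78, -1.11 and -0.71. Acot12 (ENSMUSG00000021620, chr13:91741326-91786148) had 8.26, 6.67, 7.22 and 6.69 CPM in control hearts and 14.4, 17.3, 17.3 and 15.5 CPM in control spleens. Its log2 fold changes were -1.14 (SE 0.15), -1.01 (SE 0.15) and -0.98 (SE 0.16), beside class medians of -0.22, -0.33 and -0.19. Acly had 85.6 to 101 CPM in control hearts and 150 to 173 CPM in control spleens, and log2 fold changes of -0.86, -1.23 and -0.89 (SE 0.13, 0.13 and 0.14), close to the class medians of -0.78, -1.11 and -0.71. Cyclic loess took the Acly difference to 0.00031 in control mice and 0.014 in high fibre mice; acetate mice were at -0.09, no longer called. Library totals took Acot12 to -0.27 on control and -0.06 on acetate, not called, and turned it to 0.54 on high fibre (adjusted p = 0.00650), and left Slc16a3 at -0.21 on high fibre (adjusted p = 0.204).

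Slc16a7 was lower in control hearts (13.99 to 20.9 CPM) than in control spleens (22.8 to 29.6 CPM), at -0.45 (SE 0.14, adjusted p = 0.00324). On high fibre it had -0.08 (SE 0.13) and on acetate -0.13 (SE 0.15), neither past the threshold. Windows of its class, class 9, had medians of -0.67, -0.97 and -0.61 in control, high fibre and acetate mice. Slc16a7 lay 0.22, 0.90 and 0.48 above these medians, so it was less low in heart than the median window of like abundance. Library totals and cyclic loess turned the control value to 0.46 (adjusted p = 0.0216) and 0.10 (adjusted p = 0.563). They turned the high fibre value to 1.51 (adjusted p = 1.2e-10) and 0.74 (adjusted p = 2.0e-05), both called higher in heart. With library totals the acetate value was 0.82 (adjusted p = 0.000322). Acss1 (ENSMUSG00000027452, chr2:150618111-150668240) had -0.09, 0.34 and 0.16 and Acss2 (ENSMUSG00000027605, chr2:155518043-155562743) had -0.18, -0.16 and -0.22 on the 3 diets, none of them called. Acss1 on high fibre was called with DESeq2 (0.53, adjusted p = 0.00803), with library totals (1.89, adjusted p = 1.7e-10) and without spleen high fibre replicate 2 (0.53, adjusted p = 0.0104). With library totals it was also called on acetate (1.10, adjusted p = 0.000148) and control (0.77, adjusted p = 0.00187). Acss2 turned and was called higher in heart with library totals on all 3 diets. Its values were 0.69 (adjusted p = 0.00451) on control, 1.396 (adjusted p = 1.2e-07) on high fibre and 0.71 (adjusted p = 0.00779) on acetate. The start of E130215H24Rik lies 746 bases from that of Acss1 and its window held 98 heart reads in all, against 862 for Acss1. The window of 4833422C13Rik, 351 bases from Acot12, was listed with 0 reads in every library, and how reads in overlapping windows were counted is not given in the sources used here.

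**Figure D4:**
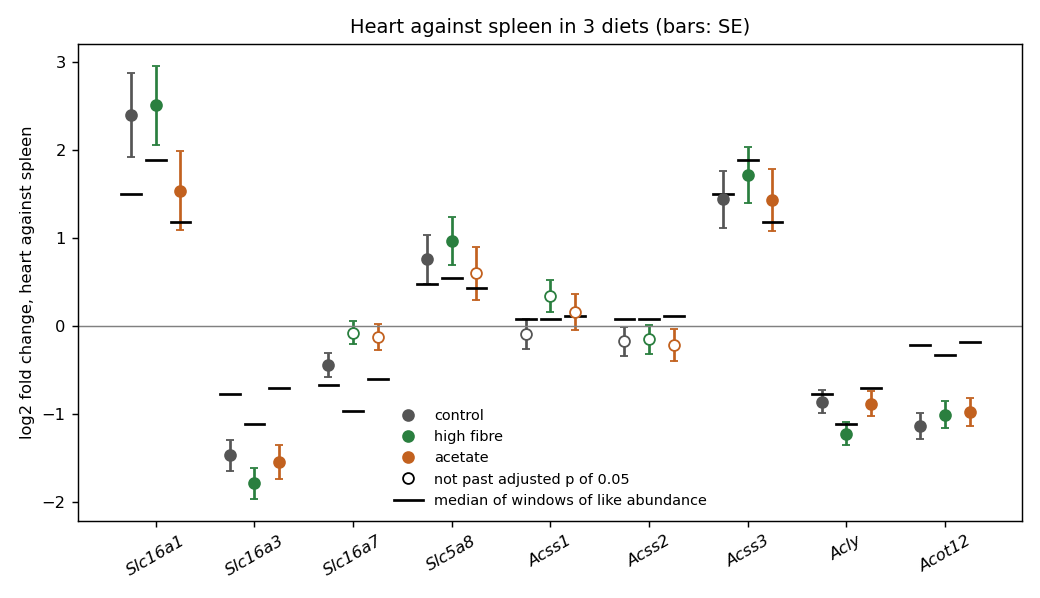
Log2 fold change of heart against spleen (y axis) for the 9 genes on control (grey), high fibre (green) and acetate (orange), with bars for the SE, open points where the adjusted p was not under 0.05, and black ticks for the median of windows of like abundance. Slc16a3 and Acot12 lie away from their ticks on control, at -1.47 and -1.14, while Acss3 and Acly lie near theirs. Slc16a1 lies above its tick on control, at 2.40, but rests on 0 to 9 reads per spleen library.

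Levels could be ordered on the common scale, since all windows have the same width. Acly (median 78.3 CPM in heart, 160 in spleen) and Slc16a3 (29.4 and 91.4) were highest, and Slc16a7 followed (21.2 and 25.5). In heart, Acss1 (8.69), Acss2 (7.63), Acot12 (7.41) and Slc5a8 (7.32) had overlapping ranges, and Slc16a1 (5.29) and Acss3 (4.92) came last. In spleen Acot12 (16.8) stood above Acss2 (8.94) and Acss1 (7.76) without overlap, and Slc5a8 (3.74), Acss3 (1.42) and Slc16a1 (0.816) came last.

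For each member, windows whose log2 CPM was most like its own over the 23 libraries, among 20648 windows, are given with Pearson's r as a description. The libraries, the tissue offset and the abundance trend are shared by all windows, which raises r. Acly went with Mei1 (r = 0.994), and Slc16a3 with Kctd10 (0.994) and Rusc2 (0.993). Slc16a1 went with Apol11b (0.964) and Stfa3 (0.954), Acss3 with Ano4 (0.963) and Syn3 (0.961), and Acot12 with Psmg3 (0.959) and Epm2a (0.958). Slc5a8 went with Sgpp2 (0.930) and Nbn (0.927). The closest windows were less alike for Acss2 (Vmn1r167, 0.801, and Slc17a4, 0.760), Acss1 (Edn1, 0.798, and Tubgcp5, 0.734) and Slc16a7 (Slc4a4, 0.773, and Zbtb20, 0.772), 3 members with small tissue differences.

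The wider pathway was read through 8 lists with 85 genes, all of them found. In high fibre against control hearts 79 were tested, of which 6 were higher and 15 lower, 26.6% beside the 26.2% of all windows. Their median log2 fold change was -0.15 against 0.02 over all windows. Unlike the members, these genes were not set beside windows of like abundance, so the trend with abundance is still in their values. The 3 genes with the smallest p in each direction were named by a rule: Acsf2, Aacs and Ldhd among the lower, and Slc5a12, Pdk3 and Acot9 among the higher. In control hearts these 3 lower genes had means of 51.3, 92.1 and 50.4 CPM, and the 3 higher ones 6.87, 14.1 and 6.75 CPM. Other called genes were named after their values were seen, because the counts are small. Carrier partners and sodium-coupled carriers were called at 4 of 4 tested windows. Slc5a12, the low-affinity relative of Slc5a8, rose by 0.86 (SE 0.17), from a group that also held Nptn at 0.53 (SE 0.17). Bsg, the chaperone of MCT1 and MCT4, was at -0.49 (SE 0.18) and Slc5a6, a vitamin transporter, at -0.37 (SE 0.12). Of 12 citrate and fatty acid synthesis genes, 4 were lower: Fasn, fatty acid synthase, at -0.65, Acacb, an acetyl-CoA carboxylase, at -0.62, Mlycd, malonyl-CoA decarboxylase, at -0.47, and Mlxipl, the carbohydrate-responsive factor, at -0.43. In that list 1 was higher, Cs, citrate synthase, at 0.78. Of 8 short and medium chain acyl-CoA synthetases, 2 were lower and 0 higher: Acsf2 was at -0.76 (SE 0.13), from 51.3 ± 5.23 to 30.1 ± 1.86 CPM (SD, n = 4 each), and Aacs, acetoacetyl-CoA synthetase, at -0.68 (SE 0.13), from 92.1 ± 5.68 to 57.6 ± 4.11 CPM. Of 15 pyruvate and lactate genes, Pdk3, a pyruvate dehydrogenase kinase, was at 0.50, its relative Pdk2 at -0.43, and Ldhd, a D-lactate dehydrogenase, at -0.69. Of 10 thioesterases, Acot9 was at 0.81 (SE 0.23) and Acot11 at -0.40. Of 10 other Slc16 genes, Slc16a12, a creatine carrier, was at 0.63 and Slc16a11 at -0.41. Of 13 acetyl carrier and ketone body genes, 2 were lower and 0 higher, among them Crat, carnitine acetyltransferase, at -0.42. Of 7 genes listed under acetyl-CoA in the nucleus and its regulators, the histone acetyltransferase Kat2a was at -0.57. With library totals as the scale, Aacs and Ldhd turned to 0.02 and 0.0032.

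**Figure D5:**
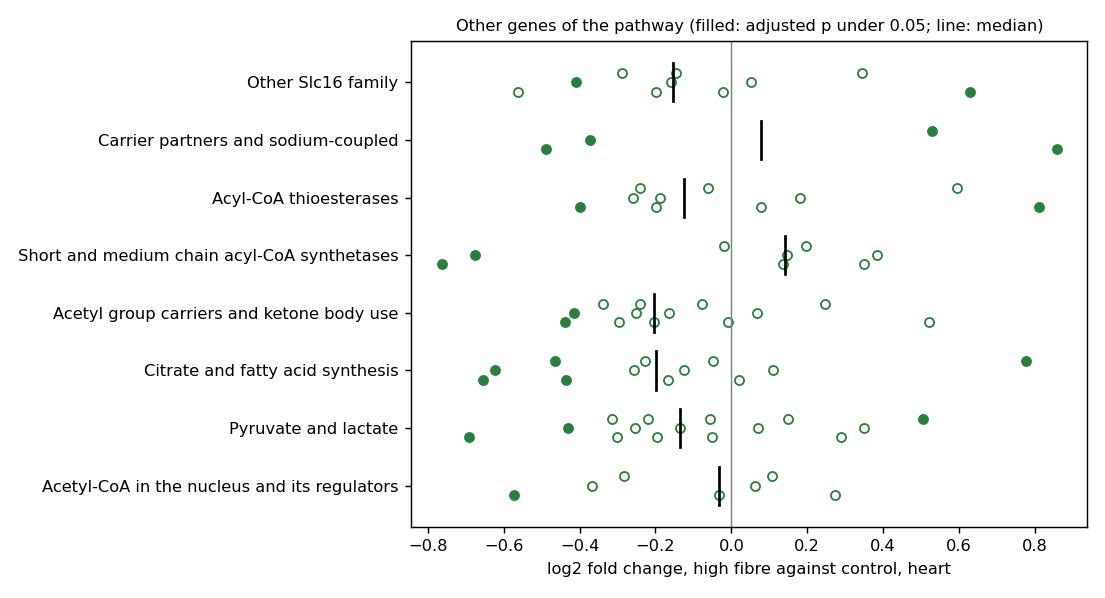
Log2 fold change of high fibre against control hearts (x axis) for the 79 tested genes of the 8 wider lists (rows, 1 point per gene), filled where the adjusted p was under 0.05, with a black line at each list's median. Of the 21 filled points 6 are above 0 and 15 below, and every list but the short and medium chain acyl-CoA synthetases and the carrier partners has its median below 0.

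Acetate moved 0 of the 79 wider genes in heart, and no diet moved any of the 73 tested in spleen. In high fibre against acetate hearts 3 of 79 were lower: Aacs at -0.63, Acsf2 at -0.63 and Fasn at -0.82, each at an adjusted p of 0.0488, which is 3.80% of the genes tested beside 1.38% of all windows called, of which 399 of 462 were lower. Each of the 3 calls was lost in 8 of 11 fits without 1 library (all but control replicate 1 and acetate replicates 2 and 3), with adjusted p up to 0.168. Each was also lost with library totals (-0.13, -0.15 and -0.28), 1 surrogate variable (-0.26, -0.31 and -0.16) and only the 2 diets (adjusted p = 0.140), and Fasn with cyclic loess (-0.48, adjusted p = 0.0509). Without acetate replicate 1 the values were -0.38, -0.43 and -0.38. Between tissues, 28 of 79 were higher and 32 lower in control hearts, 25 and 38 in high fibre hearts, and 23 and 32 in acetate hearts. These are 75.9%, 79.7% and 69.6% of the genes tested, beside 72.7%, 80.7% and 63% of all windows. Only 73 of the wider genes passed the filter in spleen, so these shares too may be partly set by the filter. In control mice Slc16a4 at 1.70, Acsm2, a medium chain acyl-CoA synthetase, at 1.56 and Crebbp, a histone acetyltransferase, at 1.44 were higher in heart. Ldhb, the lactate dehydrogenase subunit typical of heart, at -1.63, the desuccinylase Sirt5 at -1.49 and Slc16a9, a carnitine carrier, at -1.32 were lower in captured DNA. None of these wider genes was set beside windows of like abundance.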

How the data were processed

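Methyl-CpG capture libraries of left ventricle (11) and spleen (12) were analysed. The deposited values are raw counts of reads per 3 kb window, 1 table per tissue, neither normalised nor pooled. Per the submitters' processing notes, the build was GRCm38 and the tools were featureCounts 1.5.1, edgeR 3.16.5, bcl2fastq 2.19.1.403 and BWA 0.7.10; the window's placement around the start and the treatment of duplicate or overlapping reads are not given in the sources used here.

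From these counts, windows were tested with edgeR 4.0.16 in R 4.3.3 (TMM, filterByExpr at a minimum count of 10, quasi-likelihood test, Benjamini-Hochberg adjustment at 5% over all windows, prior count 2 for log2 fold changes). The 3 diets of a tissue shared 1 fit; tissue comparisons and interactions came from 1 fit over 23 libraries. The members and lists were chosen with earlier results of these data known. All 9 members were named in every comparison, of the wider lists the called genes with the 3 smallest p per direction, and for each member the 2 windows most like it. Some results that fall under this rule or these lists are not reported here. Member levels were scaled within a tissue, as planned; scaling over both tissues was used for tissue comparisons and, for the levels and the libraries that stand apart, tried as an alternative chosen after seeing the data. Alternatives were library totals, no filter, a replicate block, 1 surrogate variable (sva 3.50.0), cyclic loess (limma 3.58.1), DESeq2 1.42.0, only the 2 diets compared, and each library left out. Fits were run on simulated counts whose set changes were larger than those of the members called for high fibre in heart. The simulation held no trend with abundance, so it does not test those calls. Libraries with the same number were not treated as pairs, since not every pair's deviations correlated over 0.1: 4 of 11 heart and spleen pairs did (5 matched their own number best), 5 of 10 between heart diets (up to 0.60) and 4 of 12 between spleen diets. Read counts are not independent molecules, so the tests' precision rests on the replicate spread.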

Additional observations from a re-analysis of the deposited data

Results flagged for a closer look

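In 45 groups of 4 libraries (9 genes in 5 groups), 4 libraries lay apart from the other 3 of their group by more of the group's range than Dixon's critical value allows. Chance alone gives about 1 in 20 such groups, and heart acetate, with 3 libraries, was not examined. Slc16a7 in heart control replicate 3 was lowest at 21.1 CPM, against 30.1 to 31.6 in the other controls, and without it the high fibre change was 0.38 in place of 0.49 (edgeR, adjusted p = 0.0463). Acss2 in heart high fibre replicate 4 was highest at 14.2 CPM against 11.3 to 11.6. Acss3 in heart control replicate 1 was lowest at 4.87 CPM against 7.33 to 7.77. Acot12 in spleen acetate replicate 2 was highest at 13.5 CPM against 11.8 to 12.02.

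These flags depend on the scale. With levels scaled over both tissues, a choice made after seeing the data, 5 libraries lay apart, of which 3 were shared with the 4 above. Acot12 was not among them, and Slc16a7 in spleen acetate replicate 3 (25.9 CPM) and Acly in spleen acetate replicate 4 (194.0 CPM) were.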

How the results depend on the processing

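Numbers of windows called moved with the processing. High fibre against control in heart (8786) gave 24626 with library totals, 109 with 1 surrogate variable, 4287 with cyclic loess, 13984 with only the 2 diets, and 2495 to 14336 with 1 library left out; without acetate replicate 1 it was 14336, without control replicate 1 2495 and without high fibre replicate 4 2592. Acetate against control in heart (0) gave 1 with the replicate block, 17 with 1 surrogate variable, 1 with only the 2 diets, and 0 to 684 with 1 library left out, 684 without acetate replicate 1. High fibre against acetate in heart (462) gave 1882 with library totals, 1256 with no filter, 2284 with the replicate block, 20 with 1 surrogate variable, 2516 with DESeq2, 0 with only the 2 diets, and 0 to 4536 with 1 library left out. In spleen, high fibre against control (0) gave 1 with 1 surrogate variable. Acetate against control (0) gave 2 with no filter, 1 with the replicate block, 21 with 1 surrogate variable, 1 with cyclic loess, 1 with DESeq2, 2 with only the 2 diets, and 0 to 2 with 1 library left out. High fibre against acetate (0) gave 1 with library totals, 1 with no filter, 7 with 1 surrogate variable, and 0 to 3 with 1 library left out. Heart against spleen gave 14144 (control), 7870 (high fibre) and 13185 (acetate) with 1 surrogate variable, and 18233 (high fibre) and 14271 (acetate) with cyclic loess. The tissue difference in the high fibre effect (19) gave 6388 with library totals, 980 with the replicate block, 9 with 1 surrogate variable, 110 with DESeq2, and 0 to 602 with 1 library left out. The cause was not tested.

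Signs changed in 28 of 93 member values with library totals, 16 with 1 surrogate variable, 12 with cyclic loess, and 5 each with no filter and the replicate block. DESeq2 changed 4 of 87, only the 2 diets 1 of 48, and leaving out 1 library 87 of 1584. The sign changes in which either fit passed the threshold are given next, with those of named wider genes. In heart, high fibre against control, Acly turned to 0.32, Slc16a3 to 0.30, Aacs to 0.0173 and Ldhd to 0.0032, and Slc16a3 was at 0.0212 with 1 surrogate variable. For heart against spleen on control, library totals gave Acly 0.0503, Acss1 0.77, Acss2 0.69 and Slc16a7 0.46, and cyclic loess gave Acly 0.00031 and Slc16a7 0.10. On high fibre, library totals gave Acly 0.37, Acot12 0.54, Acss2 1.396, Slc16a7 1.51 and Slc16a9 0.0329, cyclic loess gave Acly 0.014 and Slc16a7 0.74, and 1 surrogate variable gave Slc5a8 -0.0638. On acetate, library totals gave Acly 0.0240, Acss2 0.71 and Slc16a7 0.82. With the replicate block, all 93 member values kept their side of the threshold (Slc16a7 0.49, adjusted p = 0.00343 in edgeR, for high fibre in heart), and the block rests on numbers that the libraries only share. With 1 library left out, 22 of 1584 member values lost a call and 5 gained one, but most of these values had no call to lose. The heart calls of high fibre against control were kept in 10 of 11 fits for Slc16a7 and 7 of 11 for Acly. They were kept in only 3 of 11 for Slc16a3 and 3 of 11 for Slc5a8. Of 54 mean levels, 54 moved by more than 1 SD with totals without the 5 largest windows and 48 with scaling over both tissues. Scaling over both tissues changed the ratio of a diet to control by at most 3.55%. Totals without the 5 largest windows raised the heart ratio of high fibre to control for every member. It went from 1.42 to 1.53 for Slc16a7, 1.33 to 1.43 for Slc5a8, 0.774 to 0.836 for Acly and 0.764 to 0.826 for Slc16a3. Depth limited Slc16a1 and Acss3 in spleen, with 0 to 9 and 4 to 14 reads per library.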
